A study of Homo sapiens with 17 samples.

Results

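Genomic sites with a ChIP-seq peak of FOXA1 and of FOXA2 when their CTD (C-terminal domain) was deleted, and of neither protein at full length, are described here. The comparison asks where both proteins are found only without this domain. Peaks of 4 lists (full-length FOXA1, FOXA1 with the CTD deleted, full-length FOXA2 and FOXA2 with the CTD deleted) that overlapped by at least 1 bp on chromosomes 1 to 22 and X were merged into 103347 sites. Of these, 4648 sites, or 4.50%, were overlapped by both CTD-deleted lists and by neither full-length list. They are called CTD-deleted-only sites below. The mirror class, overlapped by both full-length lists and neither CTD-deleted list, held 2258 sites, or 2.18%, and 9465 sites were in all 4 lists. The sites were chosen by presence in these lists, so this presence, the p-values of the lists and the sizes of the classes are given as descriptions.

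The cells were U2OS, a human osteosarcoma line, and each factor carried a Flag tag and was made from a Tet-on construct that doxycycline switches on. There were 17 samples, 1 of them input DNA and 16 from 8 groups with 2 biological replicates each. The groups were FOXA1, FOXA2 and FOXA3, each at full length and with the CTD deleted, SOX2 at full length, and SOX2 fused to the CTD of FOXA2. All 8 groups received doxycycline at 500 ng/ml for 4 days, as the treatment labels give it, before chromatin immunoprecipitation with a Flag antibody and sequencing (ChIP-seq). Cells without an induced factor were not analysed here as a peak list, and the labels do not say whether a line was 1 clone. Each group is represented by 1 list made from both replicates, and sequencing depth is unknown. No difference below therefore has a replicate test, and its 95% interval covers counting error over sites only.

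FOXA proteins are forkhead transcription factors that recognise a short AT-rich DNA word through a winged-helix domain. They are known as pioneer factors, which can engage sites in closed chromatin ahead of other regulators, and they guide liver, gut, breast and prostate programmes. The CTD is the region that follows the DNA-binding domain in the protein chain and contains transactivation segments. AP-1, TEAD and RUNX factors, whose DNA words were also searched for, are regulators active in many mesenchymal cells.

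The promoters that carried these sites are shown first, because they are the only stretches for which the bases under the sites were read. RefSeq promoter windows run from 250 bases before to 50 bases after a gene start in the build GRCh38.p14. A summit, the highest point of a CTD-deleted peak, fell inside 27 of 34961 such windows for 26 of the 4648 sites, since 1 site reached both the COQ6 and FAM161B windows. The 6 sequences below are the 250 bases before the start, read 5′ to 3′ on the gene's strand, and were chosen after the values were seen. The first 5 are all the protein-coding windows with a forkhead word wholly before the start, and MAN1C1 is the strongest coding window with an AP-1 word there. Capitals mark the forkhead words (TGTTTAC and its relatives TGTTTGC and TATTTAC and TATTTGC) and the AP-1 word TGANTCA, searched on both strands, and no 2 of the marked words overlap.
CMPK2, chr2:6866636-6866885, minus strand: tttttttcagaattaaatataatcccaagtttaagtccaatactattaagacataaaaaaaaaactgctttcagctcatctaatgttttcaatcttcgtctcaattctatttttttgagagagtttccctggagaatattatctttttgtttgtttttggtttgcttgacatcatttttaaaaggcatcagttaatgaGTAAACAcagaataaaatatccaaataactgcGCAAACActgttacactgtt
CD36, chr7:80645999-80646248, plus strand: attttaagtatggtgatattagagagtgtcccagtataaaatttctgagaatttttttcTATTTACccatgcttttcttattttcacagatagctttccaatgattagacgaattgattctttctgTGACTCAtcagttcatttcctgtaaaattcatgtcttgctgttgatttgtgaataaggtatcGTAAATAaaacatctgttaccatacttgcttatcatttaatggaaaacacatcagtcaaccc
RUFY3, chr4:70734160-70734409, plus strand: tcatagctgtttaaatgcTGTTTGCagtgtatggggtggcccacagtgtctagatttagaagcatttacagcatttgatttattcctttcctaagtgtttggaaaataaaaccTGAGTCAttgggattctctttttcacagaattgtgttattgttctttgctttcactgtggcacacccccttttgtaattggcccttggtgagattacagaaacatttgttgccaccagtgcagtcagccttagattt
PHACTR1, chr6:12718043-12718292, plus strand: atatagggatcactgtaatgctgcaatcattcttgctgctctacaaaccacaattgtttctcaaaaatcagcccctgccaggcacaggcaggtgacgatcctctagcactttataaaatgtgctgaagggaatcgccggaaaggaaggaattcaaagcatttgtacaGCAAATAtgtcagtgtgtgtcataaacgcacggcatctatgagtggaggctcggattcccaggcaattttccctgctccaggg
DAAM1, chr14:59263191-59263440, plus strand: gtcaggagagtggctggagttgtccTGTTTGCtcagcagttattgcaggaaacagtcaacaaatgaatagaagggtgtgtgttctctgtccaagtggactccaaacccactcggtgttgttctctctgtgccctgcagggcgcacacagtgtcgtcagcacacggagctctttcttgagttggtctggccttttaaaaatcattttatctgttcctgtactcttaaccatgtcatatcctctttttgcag
MAN1C1, chr1:25695905-25696154, plus strand: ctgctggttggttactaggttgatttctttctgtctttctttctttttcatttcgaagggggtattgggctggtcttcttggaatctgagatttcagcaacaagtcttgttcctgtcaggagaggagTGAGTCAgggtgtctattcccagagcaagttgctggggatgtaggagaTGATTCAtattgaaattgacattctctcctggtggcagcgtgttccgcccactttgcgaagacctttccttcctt

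In CMPK2, which encodes a mitochondrial nucleotide kinase, 2 forkhead words begin 52 and 20 bases before the start. The FOXA1 summit lay 3 bases before the start and the FOXA2 summit 12 bases after it. In CD36, a fatty acid receptor gene, forkhead words begin 191 and 62 bases upstream with an AP-1 word 124 bases upstream between them. The summits there lay 105 bases upstream for FOXA1 and 117 for FOXA2, close to that AP-1 word. RUFY3 has a forkhead word 232 and an AP-1 word 137 bases upstream. The FOXA2 summit lay 123 bases upstream, and the FOXA1 summit lay 267 bases upstream, outside the window and nearer to the forkhead word. PHACTR1, a regulator of actin and phosphatase 1, has 1 forkhead word 83 bases upstream, while both summits lay just after the start. DAAM1, a formin that nucleates actin filaments, has 1 forkhead word 225 bases upstream. Its summits lay 258 bases upstream for FOXA1, outside the window, and 176 for FOXA2. MAN1C1, a Golgi mannosidase gene, has 2 AP-1 words, 123 and 75 bases upstream, and its summits lay 65 and 38 bases upstream.

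Of the 20 coding windows, 6 held a forkhead word, and of the 7 windows of long non-coding RNAs, 3 did. SUPT4H1, which encodes a transcription elongation factor, was the sixth, with the word TATTTAC across its start. Counted by the strongest summit of a site alone, CTD-deleted-only sites fell in 21 windows, of which 6 held a forkhead word, or 28.6% (13.8 to 49.96, Wilson 95% interval). Over all 34961 windows the share was 12.1%. Over the 1632 windows with a summit of any merged site it was 23.3%. Sites of all 4 lists gave 32 of 83 windows, or 38.55%, those of CTD-deleted FOXA1 and no other of the 4 lists 11 of 33, or 33.3%, and those of CTD-deleted FOXA2 alone 63 of 197, or 31.98%. Of the 78 windows that a CTD-deleted-only site overlapped anywhere, 14 held a forkhead word, or 17.95%. Full-length-only sites gave 21 of 125 windows, or 16.8%, and the difference of 11.8 percentage points had an interval of -4.79 to 33.9 (Newcombe), which includes 0. With so few windows, a difference in forkhead words was not detectable.

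The other 3 words were added after the values had been seen and are given without a comparison interval. The AP-1 word was in 10 of the 21 windows of CTD-deleted-only sites, or 47.6%, in 15 of the 125 windows of full-length-only sites, or 12%, and in 7.68% of all windows. Sites of all 4 lists gave 23 of 83 windows, or 27.7%, and sites of CTD-deleted FOXA1 and no other of the 4 lists 18 of 33, or 54.55%. Over the 1632 windows with a summit of any merged site the share was 12.1%. Over windows that a site overlapped anywhere, the AP-1 word was in 13 of 78 for CTD-deleted-only sites, or 16.67%, in 49 of 304 for sites of all 4 lists, or 16.1%, and in 23 of 263 for full-length-only sites, or 8.745%. The AP-1 share was thus not the highest in the CTD-deleted-only class by summits and was nearly that of sites in all 4 lists by overlap. Base composition moved with these counts: the median GC content was 46.3% in the windows of CTD-deleted-only sites, 61.7% in those of full-length-only sites and 58.7% over all windows. Among windows with a GC content under 50%, the AP-1 word was in 9 of 15 windows of CTD-deleted-only sites, 6 of 16 of full-length-only sites, 17 of 34 of sites in all 4 lists, and 13.5% of all such windows. Forkhead words were in 5 of 15, 7 of 16 and 15 of 34 of these windows, in the same order, and in 23.1% of all such windows. The forkhead share of CTD-deleted-only sites was thus below that of full-length-only sites there. The part of base composition in the counts was not tested beyond this split. The TEAD word GGAATG was in 4 of the 21 windows against 14.0% of all windows, and the RUNX word TGTGGT was also in 4 against 13.1%.

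The sites in promoter windows had a strength between 2.19 and 4.445, against 20.55 for the strongest site of the class. Strength here is the −log10 p of a peak as the authors' caller gave it, taken as the lowest of the 4 values from 2 replicates of each CTD-deleted list, and the columns carry no replicate numbers. The 6 strongest coding promoters were those of DUSP10, a phosphatase of stress-activated kinases, SUPT4H1, ABLIM1, an actin-binding protein gene, MYL11, a myosin light chain gene, MAN1C1, and TSPAN33, a tetraspanin gene. DUSP10 had −log10 p values of 4.45 and 6.33 for FOXA1 and of 5.27 and 4.86 for FOXA2. At SUPT4H1 the FOXA2 values of 13.85 and 14.8 stood above the FOXA1 values of 4.08 and 7.84 (columns in the order of the list). TSPAN33, level with MAN1C1 at the lowest value of the 6, had 3.23 and 6.81 in the FOXA1 and 3.62 and 6.68 in the FOXA2 replicates. The sites at SUPT4H1, ABLIM1 and MAN1C1 were also overlapped by a peak of CTD-deleted FOXA3, and the other 3 of these 6 were not.

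Away from promoters the sites reached higher values. The 10 strongest, leaving out each chromosome's longest stretch with no annotated gene (a gene-free stretch), had a lowest −log10 p between 9.63 and 20.55. The strongest lay at chr1:160101863-160102726, 2.7 kb from IGSF8, which encodes a membrane protein of the immunoglobulin superfamily. Its −log10 p was 25 and 45.9 in the FOXA1 replicates and 21.7 and 20.55 in the FOXA2 replicates. The FOXA1 values were the higher ones there, and the nearest full-length peak of FOXA1 or FOXA2 was 80.5 kb away. A full-length FOXA3 peak overlapped this site, and no CTD-deleted FOXA3 peak did.

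The next lay at chr3:46906735-46908823, 4.3 kb from PTH1R, the receptor gene for parathyroid hormone. It had −log10 p values of 33.3 and 67.7 for FOXA1 and 20.4 and 57.4 for FOXA2, so in both lists one replicate column stood far above the other. A full-length FOXA2 peak lay only 645 bp from this site. At chr9:37546521-37547765, inside FBXO10, a subunit gene of a ubiquitin ligase, the values were 20.05 and 43.0 for FOXA1 and 18.4 and 33.1 for FOXA2. This was the only one of the 10 that was overlapped by both FOXA3 lists and by the SOX2-FOXA2 CTD fusion.

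The remaining 7 were spread over several chromosomes, inside genes and far from them. A site at chr2:34815158-34817824 lay 1216.9 kb from FAM98A, its nearest coding gene, with −log10 p values of 25.7 and 38.3 for FOXA1 and 17.8 and 22.55 for FOXA2. A site at chr5:30606975-30608395 lay 586.1 kb from CDH6, a cadherin gene, and only 798 bp from a full-length FOXA2 peak, with values of 13.45 and 26.75 for FOXA1 and 13.45 and 18.4 for FOXA2. Others were nearest to RALYL and HPDL, or inside NOL10, a nucleolar protein gene, GALNT3, which starts mucin-type glycosylation, and MAD1L1, a spindle checkpoint gene. In all 10 the second FOXA1 column was the highest of the 4 values, and the sites in GALNT3 and MAD1L1 were the weakest by the lowest value. The gene table holds no exons, so exonic and intronic sites were not told apart.

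**Figure D1:**
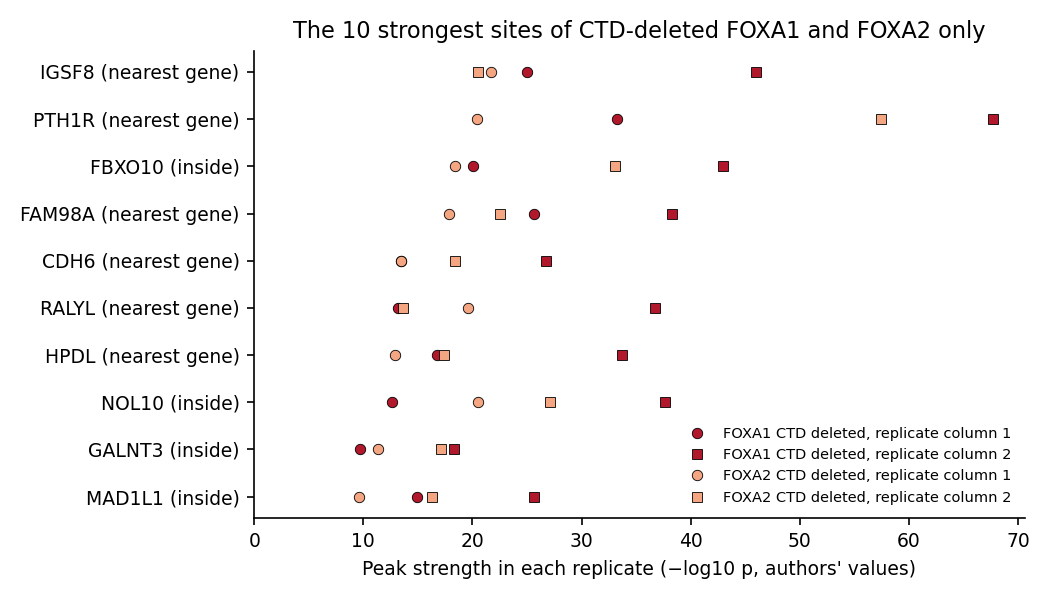
The −log10 p values of the 10 strongest CTD-deleted-only sites, 1 row per site, with circles and squares for the 2 replicate columns of FOXA1 (dark red) and FOXA2 (light orange) with the CTD deleted. Values run from 9.63 at MAD1L1 to 67.7 at PTH1R, and the second FOXA1 column is the highest value in each row.

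As a class the CTD-deleted-only sites were not strong peaks of their lists. In the FOXA1 CTD-deleted list their −log10 p in the weaker replicate had a median of 4.08 and ran from 2.44 to 33.3, against a median of 4.34 over that list. In the FOXA2 CTD-deleted list the median was 2.96, from 2.09 to 20.55, and the median over the list was also 2.96. The top quartile of each list took in 15.5% of the sites by FOXA1 and 18.3% by FOXA2. By contrast, sites of all 4 lists had medians of 6.32 and 4.39, with 54.1% and 55.9% in the top quartile.

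The values of both factors followed each other only loosely across these sites. Spearman's rho between the FOXA1 and FOXA2 strength was 0.152 over the 4648 sites and 0.348 over the 9465 sites of all 4 lists. Between replicates, across the same 4648 sites, it was 0.404 for FOXA1 and 0.122 for FOXA2. These are correlations across sites that share 4 libraries and a lower limit of p, and are descriptions only. The IDR (irreproducible discovery rate, which measures how well the rank of a peak agrees between replicates) had a median of 0.0125 in the FOXA1 list and 0.0969 in the FOXA2 list for these sites. At an IDR of at most 0.01 stood 2026 of them, or 43.6%, in the FOXA1 list and 235, or 5.06%, in the FOXA2 list. Over all peaks it was 26624 of 50105 in the FOXA1 CTD-deleted list and 6460 of 52866 in the FOXA2 CTD-deleted list. Both are larger shares than those of the sites, and the gap between FOXA1 and FOXA2 was present over the whole lists.

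Although the strengths were loosely related, the positions were close. The FOXA1 and FOXA2 summits in a CTD-deleted-only site lay a median of 38 bp apart, and in 3844 sites, or 82.7% (81.6 to 83.8), they lay within 100 bp. Sites of all 4 lists gave 34 bp and 85.0%. In full-length-only sites the median was 68 bp, and 62.1% (60.1 to 64.1) lay within 100 bp. CTD-deleted-only sites were 734 bp wide in the median, from 252 to 3818 bp, and 22 of them held more than 1 peak of a list.

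By the rule no site held a full-length peak of FOXA1 or FOXA2, but some had one nearby. FOXA3 peaks were not counted in these distances. The nearest full-length peak was a median of 12.2 kb away, and in 335 sites, or 7.21%, it was within 1 kb. It was within 10 kb of 2038 sites, or 43.85%. The full-length lists held 37219 (FOXA1) and 44637 (FOXA2) peaks. These distances were not computed for another class or for random positions, so they are descriptions only. The sites nearest to being left out show how narrow the boundary is. A site at chr10:128380222-128380972, 254.2 kb from MKI67, the gene of the proliferation marker Ki-67, was 18 bp from a full-length FOXA1 peak. Sites inside NRDC and NCAM1 were 33 and 52 bp, and one on chromosome 9 nearest to SPATA31A1 was 56 bp, from a full-length FOXA2 peak. On the other side, a site at chr5:123916630-123918574, nearest to CSNK1G3, was left out by an overlap of 2 bp, and 1 at chr3:190142704-190144168, nearest to P3H2, by 5 bp, both with a full-length FOXA1 peak. Overlaps of 47 and 49 bp left out a site inside STXBP5L and one nearest to ARAP2.

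The number of sites depended on where the lists end. The weakest peaks of the full-length lists had an IDR of 0.200 (FOXA1) and 0.351 (FOXA2), and those of the CTD-deleted lists 0.0501 and 0.25. As deposited there were 2.06 times as many CTD-deleted-only as full-length-only sites. The former were 20.4% of the 22808 sites with both CTD-deleted lists, and the latter 12.9% of the 17494 sites with both full-length lists. With the 37219 strongest peaks of every list, an alternative chosen after seeing the data, the numbers were 2485 and 2820, so the order of the classes turned. At an IDR of at most 0.05 in all 4 lists they were 7258 and 16, where the full-length FOXA2 list kept 1866 of its 44637 peaks. Of the shares below, those overlapped by the other 4 lists, near gene ends, inside genes and with a neighbour within 10 kb were recomputed under these limits, and the others come from the lists as deposited alone.

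The other FOXA protein, FOXA3, gives a measure that the choice of sites did not use. A FOXA3 CTD-deleted peak overlapped 400 of the 4648 CTD-deleted-only sites, or 8.61% (7.83 to 9.45), and 61 of the 2258 full-length-only sites, or 2.70% (2.11 to 3.46). Over all merged sites the share was 6.17%. The difference between the classes was 5.90 percentage points (4.83 to 6.93). Sites of all 4 lists were overlapped far more often, at 22.95% (22.1 to 23.8), 14.3 points above the CTD-deleted-only sites (interval of the difference, CTD-deleted-only minus all 4 lists, -15.5 to -13.2). Sites of both CTD-deleted lists and 1 full-length list gave 15.25%. Those of CTD-deleted FOXA1 and no other of the 4 lists gave 2.10%, and those of CTD-deleted FOXA2 alone 2.40%. CTD-deleted-only sites thus lay above the background and below the other sites with both CTD-deleted lists. Wider sites have more room for an overlap. The median widths were 734, 840.5 and 1017 bp in CTD-deleted-only, full-length-only and all-4-list sites. When the summit itself had to lie in a FOXA3 peak, the difference from full-length-only sites was 5.80 points (4.72 to 6.82).

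Full-length FOXA3 showed the same order. Its peaks overlapped 338 CTD-deleted-only sites, or 7.27% (6.56 to 8.05), against 2.35% of full-length-only sites and 5.50% of all merged sites. The FOXA3 lists are not independent, because 5012 of the 6130 rows of the full-length list recur unchanged in the CTD-deleted list. Which of the 2 groups these rows came from is unknown, so the values given here for CTD-deleted FOXA3 may in part be those of full-length FOXA3 peaks. When the CTD-deleted list was read without its shared rows, a step added after seeing the data, it overlapped 2.17% (1.79 to 2.63) of CTD-deleted-only sites, against 0.753% of full-length-only sites, 5.23% of sites in all 4 lists and a background of 1.65%. The difference from full-length-only sites was then 1.42 points (0.831 to 1.96). When the full-length list was read in the same way, 39 CTD-deleted-only sites, or 0.839%, were overlapped, against 0.399% of full-length-only sites and a background of 0.980%. That difference was 0.441 points (0.0185 to 0.800), and the share of CTD-deleted-only sites was then not above the background.

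**Figure D2:**
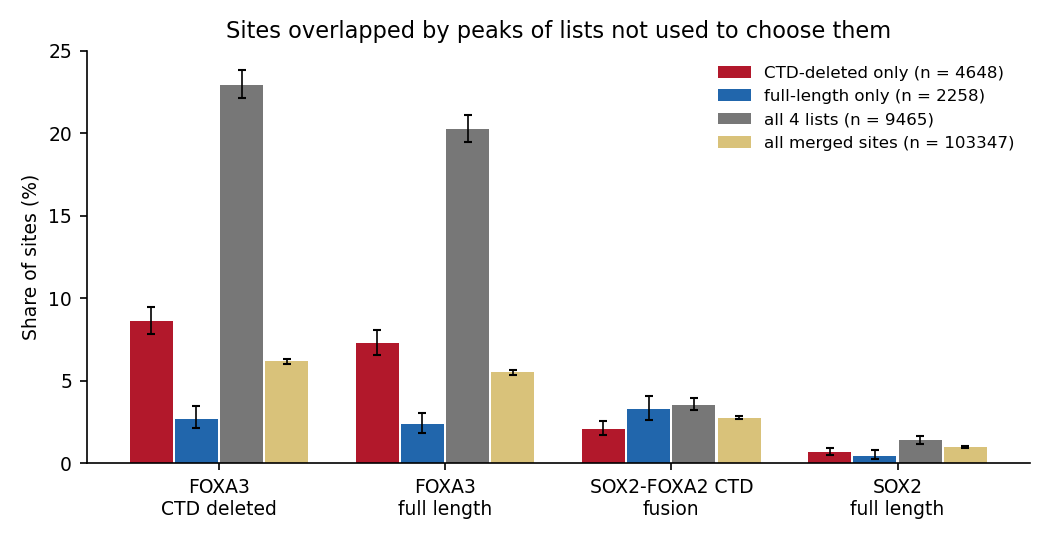
Share of sites overlapped by a peak of each list that did not define the classes, in percent with Wilson 95% intervals, for CTD-deleted-only, full-length-only, all-4-list and all merged sites. For CTD-deleted FOXA3 the bars stand at 8.61%, 2.70%, 22.95% and 6.17%.

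Overlap with FOXA3 was more frequent at stronger sites. From the weakest to the strongest quartile of the CTD-deleted-only sites, 2.58%, 5.08%, 8.43% and 18.3% were overlapped by a CTD-deleted FOXA3 peak. In the quartiles of the full-length-only sites these shares were 1.06%, 1.60%, 1.77% and 6.37%. In each quartile the CTD-deleted-only share was the higher one, with intervals that did not overlap in the upper 3 quartiles. The strengths of both classes come from different lists with different limits, so a quartile does not stand for the same p in each. With an IDR of at most 0.01 in both CTD-deleted lists, 170 sites were left and 42.35% (35.2 to 49.9) were overlapped. No full-length-only site could be compared, since the full-length FOXA2 list held 0 peaks at that limit. Of the 10 strongest sites, those near PTH1R and CDH6 and those inside FBXO10, NOL10 and MAD1L1 were overlapped by CTD-deleted FOXA3, and these 5 were also the strongest of all 400 outside the gene-free stretches.

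**Figure D3:**
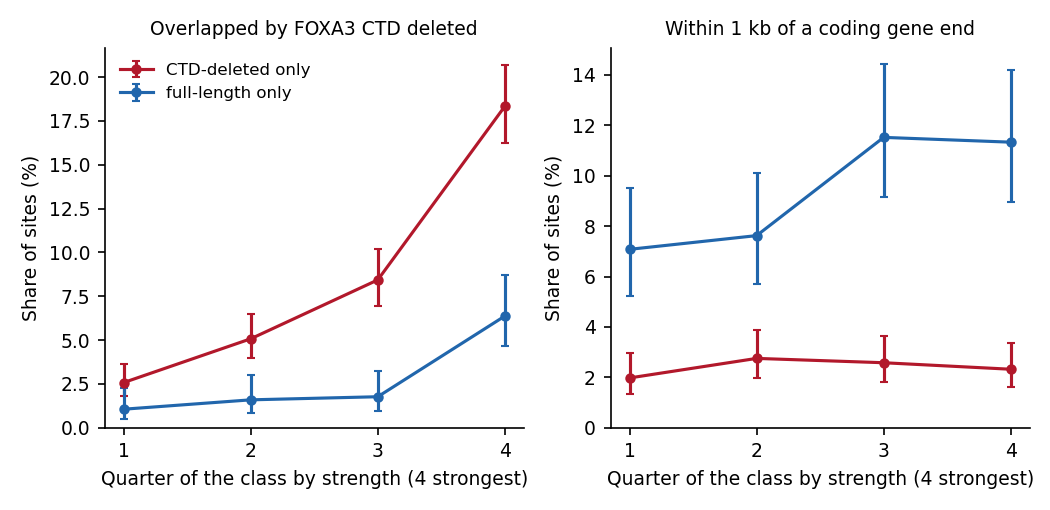
Share of CTD-deleted-only (red) and full-length-only (blue) sites in each quartile of strength, with Wilson 95% intervals: left, overlapped by a CTD-deleted FOXA3 peak; right, with a summit within 1 kb of an end of a coding gene. The left share climbs to 18.3% in the strongest red quartile, and on the right the red shares stay between 1.98% and 2.75%.

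The fusion of SOX2 with the CTD of FOXA2 is a factor of another family, a high-mobility-group protein, that carries the segment missing from the CTD-deleted FOXA2. Its peaks overlapped 97 CTD-deleted-only sites, or 2.09% (1.71 to 2.54), 74 full-length-only sites, or 3.28% (2.62 to 4.10), and 2.76% of all merged sites. The difference was -1.19 points (-2.09 to -0.391). The direction turned with the fusion peaks of the first replicate alone, where the difference was 1.10 points (-0.420 to 2.54). It was -0.585 (-1.48 to 0.320) with equal numbers of the strongest peaks and -0.560 (-1.34 to 0.125) when the summit had to lie in a fusion peak, and both intervals include 0. The order of the classes for the fusion is therefore not settled by these lists.

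The 5 strongest sites shared with the fusion, outside the gene-free stretches, lay inside FBXO10, inside KBTBD3, near RBM47, inside ADAM10, which encodes a membrane protease that sheds cell surface proteins, and near SNTB1. The KBTBD3 site, at chr11:106075862-106077259, had −log10 p values of 6.95 and 10.8 for FOXA1 and 5.47 and 12.3 for FOXA2. Of these 5 sites, only that in ADAM10 was overlapped by no FOXA3 list. Over all CTD-deleted-only sites, 31 were shared with both the fusion and CTD-deleted FOXA3, or 0.667%, against 0.856% of all merged sites.

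SOX2 at full length overlapped 31 of the CTD-deleted-only sites, or 0.667% (0.470 to 0.945), against 0.443% of full-length-only sites and 0.983% of all merged sites. The interval of the difference, 0.224 points (-0.195 to 0.568), includes 0. With the SOX2 peaks of the first replicate alone it was 2.38 points (1.42 to 3.27), and outside the gene-free stretches described next it turned to -0.0685 (-0.331 to 0.0857), so the order of the classes for SOX2 is not settled either. Of these 31 sites, 28 lay in the longest gene-free stretches, as did 956 of the 1016 merged sites with a SOX2 peak. Among full-length-only and all-4-list sites with a SOX2 peak, 7 of 10 and 121 of 131 did. The stretches held 50 CTD-deleted-only sites in all, or 1.08%, against 3.78% of all merged sites. Only 3 of the 31 stood outside. They lay 7.1 kb from DLG1, a scaffold protein gene, inside TRAPPC9, a gene of membrane trafficking, and inside CPA6, a carboxypeptidase gene. All 3 were weak, with a lowest −log10 p between 2.36 and 2.96. In none of the 4 other lists were 4177 CTD-deleted-only sites, or 89.9% (89.0 to 90.7). This was near the share over all merged sites, 91.7%, and lay between 94.4% of full-length-only and 75.4% of all-4-list sites.

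Position relative to genes also differed between the classes and was not used to choose them. The RefSeq table gives gene ends without strand, so an end can be a start or a 3′ end. A summit within 1 kb of a coding gene's end was found in 112 CTD-deleted-only sites, or 2.41% (2.01 to 2.89), and in 212 full-length-only sites, or 9.39% (8.25 to 10.7). The share was 4.51% of all merged sites and 3.34% of the sites in all 4 lists. It was 1.61% for sites of CTD-deleted FOXA1 and no other of the 4 lists, and 3.56% for those of CTD-deleted FOXA2 alone. Sites of both CTD-deleted lists and 1 full-length list gave 2.97%. A low share was therefore not particular to the CTD-deleted-only sites. The difference from full-length-only sites was -6.98 points (-8.31 to -5.75), and from sites of all 4 lists -0.929 (-1.48 to -0.337).

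The share near gene ends stayed below that of full-length-only sites in every quartile of strength. It was 1.98%, 2.75%, 2.58% and 2.32% from the weakest to the strongest quartile of CTD-deleted-only sites, and 7.08%, 7.62%, 11.5% and 11.3% in full-length-only sites. With equal numbers of the strongest peaks the difference was -6.89 points (-8.16 to -5.65). At a common IDR of 0.05, where 16 full-length-only sites were left, it was -3.55 with an interval of -25.6 to 1.60.

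Compared with full-length-only sites, the CTD-deleted-only sites lay less often inside coding genes and more often far from them. The summit was inside a coding gene in 2043 sites, or 43.95% (42.5 to 45.4), in 49.5% of full-length-only sites, in 47.8% of sites in all 4 lists and in 45.3% of all merged sites. Outside coding genes and over 100 kb from any of their ends stood 1406 sites, or 30.25% (28.95 to 31.6), against 22.2% (20.5 to 23.95) of full-length-only sites and 29.4% of all merged sites. The differences from full-length-only sites were -5.56 (-8.06 to -3.05) and 8.06 points (5.87 to 10.2). Both shares of the CTD-deleted-only sites stood within 2 points of those over all merged sites, and those of full-length-only sites stood over 4 points away. Sites of CTD-deleted FOXA1 and no other of the 4 lists gave 41.98% inside and 36.7% over 100 kb away. Those of CTD-deleted FOXA2 alone gave 43.94% and 26.3%, and those of both CTD-deleted lists and 1 full-length list 46.1% and 28.7%. Neither share was thus particular to the CTD-deleted-only sites.

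**Figure D4:**
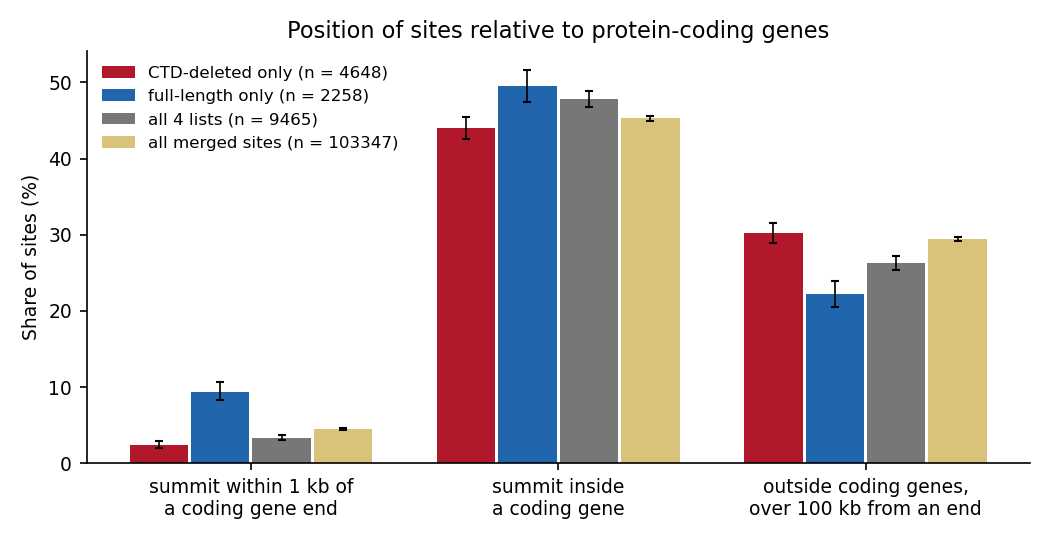
Share of sites, in percent with Wilson 95% intervals, whose summit lay within 1 kb of an end of a coding gene, inside a coding gene, or outside coding genes and over 100 kb from any end, for the 3 classes and all merged sites. Of the classes shown, CTD-deleted-only sites have the lowest bar near gene ends, 2.41% against 9.39% in full-length-only sites.

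Among chromosomes, the share of merged sites that were CTD-deleted-only was highest on chromosome 15, at 5.60% (4.87 to 6.43), then on X at 5.29% (4.22 to 6.62) and on chromosome 14 at 4.97% (4.24 to 5.82). It was lowest on chromosome 19, where 12 of 812 merged sites, or 1.48% (0.847 to 2.57), belonged to the class, then on chromosome 22 at 2.93% and chromosome 20 at 3.35%. The 3 highest intervals overlap each other. On chromosome 19 alone the CTD-deleted-only sites were fewer than the 18 full-length-only sites. Across the 23 chromosomes Spearman's rho with the density of coding genes was -0.335 for CTD-deleted-only and 0.440 for full-length-only sites, a description over chromosomes of unequal size.

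**Figure D5:**
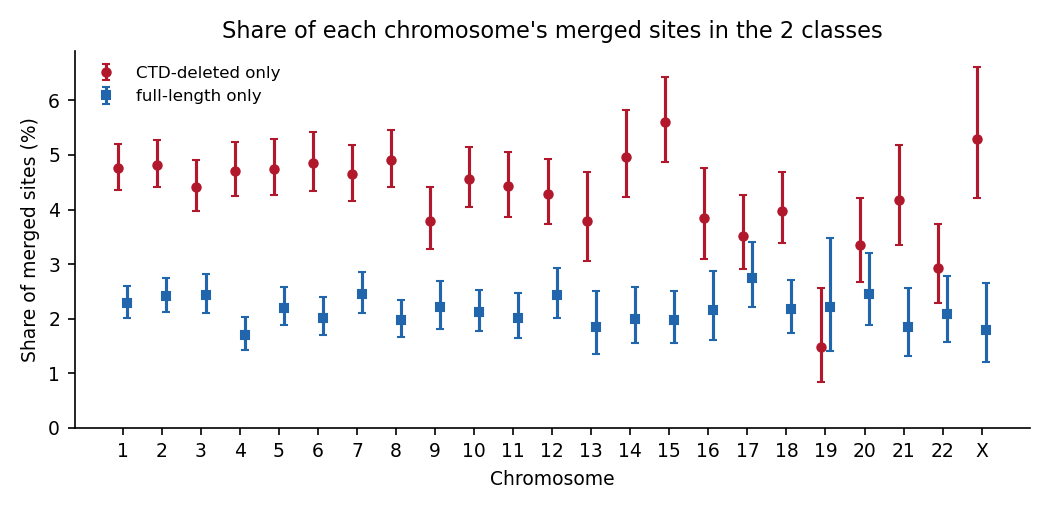
Share of each chromosome's merged sites that were CTD-deleted-only (red circles) or full-length-only (blue squares), in percent with Wilson 95% intervals. Chromosome 19 is the one chromosome where the red point, at 1.48%, is below the blue, at 2.22%.

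The sites were scattered along chromosomes. Another CTD-deleted-only site lay within 10 kb of 250 sites, or 5.38% (4.77 to 6.07), and within 50 kb of 21.1%. For the smaller class of full-length-only sites these shares were 2.44% and 11.6%. With 2485 and 2820 sites, from equal numbers of peaks, the difference within 10 kb was 0.695 points (-0.240 to 1.66), which includes 0. The densest megabase, on chromosome 21 from 27 to 28 Mb, held 11 sites and no coding gene, with 158 merged sites in all. On chromosome 4 from 53 to 54 Mb there were 10 sites among 93 merged sites, in a region with SCFD2, FIP1L1 and LNX1. In all, 14 of 2873 megabases with a merged site held 8 or more and 852 held none.

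Of the 19974 protein-coding genes, 1510 held a CTD-deleted-only site, or 7.56%. They were long genes, with a median length of 159 kb against 24.2 kb for all. CTNNA3, a catenin gene of cell junctions, held most, with 11 of its 135 merged sites in 1851 kb. EYS, a photoreceptor protein gene, held 9 of 151, and DLG2, a synaptic scaffold gene, 8 of 108. ADGRL3, an adhesion receptor gene, LINGO2, PCDH15, a protocadherin gene of hair cells, and PRKG1, a cGMP-dependent kinase gene, held 6 each. These shares of merged sites ran from 3.53% in PCDH15 to 9.68% in ADGRL3, around the background of 4.50%.

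Shorter genes held the densest groups. ABCB1, the gene of the drug efflux pump P-glycoprotein, at chr7:87503017-87713295, held 5 CTD-deleted-only sites among 15 merged sites, 1 site of all 4 lists and no full-length-only site. Per 100 kb this was 2.38 sites. NIPBL, the gene of the cohesin loader, held 5 of 30, or 2.64 per 100 kb, NSMCE2, a SUMO ligase gene of DNA repair, 5 of 30, or 1.82, and GHR, the growth hormone receptor gene, 5 of 29, or 1.68. None of these 4 genes held a full-length-only site. The genes were picked for their counts, so these counts are a description.

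Lists of genes chosen for their roles, 9 lists with 172 genes in all, were then read for a CTD-deleted-only site within the gene or 50 kb of it, against 17.1% of all coding genes (13.5% for full-length-only and 32.6% for sites of all 4 lists). Longer genes have more room: the share was 24.5% among genes longer than the median and 9.80% among the rest. Among 18 luminal FOXA1 target genes of breast and prostate, 6 had such a site, against 1 with a full-length-only site and 4 with a site of all 4 lists. PGR, the progesterone receptor gene, had only 10 merged sites within it or 50 kb of it, none of them full-length-only or in all 4 lists. Of these 10, 3 were CTD-deleted-only, all inside the gene. The strongest of these 3, at chr11:101091623-101092322, had −log10 p values of 3.53 and 4.99 for FOXA1 and 4.39 and 5.80 for FOXA2. ESR1, the oestrogen receptor gene, had 2, and KLK2, a prostate kallikrein gene, had 1 at 9.0 kb.

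Integrin and laminin genes, which encode cell-matrix receptors and their ligands, had a site at 10 of 22, or 45.45%, against 3 with a full-length-only site and 11 with a site of all 4 lists, and their median length was 103 kb. ITGB1 had 2 inside the gene, and the stronger by its lowest −log10 p had values from 3.44 to 12.1. LAMA4 had 1 at 41.3 kb from the gene, and ITGB5 had 1 inside the gene. Forkhead genes other than FOXA had 7 of 20, against 4 with a full-length-only site and 7 with a site of all 4 lists, with 2 each at FOXP2 and FOXP1. At FOXB1 a site at chr15:60034700-60036524, 28.1 kb from the gene, was among the stronger ones, with −log10 p values of 8.41 and 24.2 for FOXA1 and 15.3 and 21.9 for FOXA2. Osteoblast and mesenchymal regulators had 6 of 18, against 1 with a full-length-only site and 7 with a site of all 4 lists. Among the 6 were MEF2C and RUNX1, each with a site inside the gene. SP7, a master factor of bone formation, was counted for a site 46.0 kb from the gene. The MEF2C site was also overlapped by CTD-deleted FOXA3, and its −log10 p values were 5.95 and 12.5 in the FOXA1 and 5.27 and 11.1 in the FOXA2 replicates.

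The other lists stood nearer to the background or below it. Regulators of the epithelial-mesenchymal transition had 4 of 16, against 4 with a full-length-only site and 7 with a site of all 4 lists. Among them were TGFB2, SNAI2 and CDH2. The TGFB2 site, 31.9 kb from the gene, was shared with CTD-deleted FOXA3, and the SNAI2 site lay 26.0 kb from SNAI2. Hepatocyte genes had 4 of 18, against 1 with a full-length-only site and 5 with a site of all 4 lists. There FGA and FGB shared 1 site and APOB held 1. Endoderm and gut regulators had 2 of 18, CER1 and PROX1, against 3 with a full-length-only site and 5 with a site of all 4 lists. The CER1 site lay 26.2 kb from the gene, and the PROX1 site was also overlapped by the fusion. AP-1 and YAP-TEAD genes had 2 of 20, YAP1 and MAF, against 3 with a full-length-only site and 9 with a site of all 4 lists. Cytosolic ribosomal protein genes, which are short, had 0 of 22, against 0 with a full-length-only site and 3 with a site of all 4 lists. With 16 to 22 genes a list, a single gene moves a share by several points, and no list was tested.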

How the data were processed

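Flag ChIP-seq peaks of 8 groups of U2OS cells were analysed, 1 combined list per group. The submitters' processing notes name Bowtie2 2.4.4, FastQC 0.10.1, MACS2, SAMtools 0.1.18, Trim Galore, deepTools 2.4.1 and the build hg38, with no role or order. The 8 deposited combined lists have the 20-column layout of the IDR program. Per the file headers and values, the columns used were positions, summits, the authors' −log10 p of each replicate, the −log10 IDR and the IDR score, which equals 125 times log2 of 1 over the IDR up to a ceiling. The deposited first-replicate lists of SOX2 and the fusion, which also give a fold enrichment (a ratio) and −log10 q that were not used, served as an alternative. Of 14 deposited files 10 were used. Any IDR limit, control or read number behind the lists is not given in the sources used here, so depth is unknown.

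Peaks of the 4 FOXA1 and FOXA2 lists were merged at an overlap of 1 bp with python 3.11.15, numpy 2.4.6, pandas 2.3.3 and scipy 1.17.1, and figures were drawn with matplotlib 3.10.9. The summit of a site is that of its strongest peak. Coding genes came from the RefSeq table of GRCh38.p14, the same assembly as hg38 by name, and promoter sequences from the RefSeq table of 34961 windows of 27195 genes. Shares have Wilson 95% intervals and differences Newcombe intervals. No p-value was computed, since there is 1 list per group, and the authors' p-values served only to describe, rank and filter peaks. The code was tested on simulated peaks.

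The members and gene lists were chosen with earlier results of these data known. The text names the 10 strongest sites, the 6 strongest at coding promoters, the 8 genes with most sites and, of genes with at least 5, the 4 densest, the 3 genes of each list with most sites, the 5 strongest shared with CTD-deleted FOXA3 and with the fusion, the SOX2 sites outside gene-free stretches, the 3 highest and lowest chromosomes, and 4 sites on each side of the overlap limit. Sites over 50 kb from FOXA1, FOXA2, FOXA3 and SOX2 and outside the gene-free stretches were eligible as strongest, and 0 sites lay within 50 kb of those genes. The AP-1, TEAD and RUNX words, the GC split, the share over 100 kb from genes, the dense megabases, equal numbers of peaks, the CTD-deleted FOXA3 list without shared rows, the summit rule and the printed promoters were added after seeing the data. The planned share of summits with a forkhead motif in 300 or 100 bases needs a genome sequence, which was not used here, so promoter windows stood in for it.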

Additional observations from a re-analysis of the deposited data

Results flagged for a closer look

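Contigs outside chromosomes 1 to 22 and X were left out of the report. On them the 4 lists merged into 991 sites, of which 51, or 5.15%, were overlapped by both CTD-deleted lists and neither full-length list, above the 3 that a count of 0 allows. Of these, 0 lay on chromosome Y. The mirror class held 29 of these sites, or 2.93%. The sites in these classes lay on 40 contigs, and their genes were not analysed here.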

How the results depend on the processing

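No paired analysis was possible because each group has 1 combined list and no result comes from a test, and for the same reason no replicate could be left out of the FOXA1 and FOXA2 lists. Without those that have a full-length FOXA1 or FOXA2 peak within 1 kb, 4313 CTD-deleted-only sites were left, and outside the gene-free stretches 4598. Both numbers stayed within 1.5 times of 4648. An IDR of at most 0.01 in both CTD-deleted lists left 170 sites, with shares of 42.35% for CTD-deleted FOXA3, 35.3% for full-length FOXA3, 4.12% for the fusion, 1.18% for SOX2, 40.6% inside a coding gene and 1.18% with a neighbour within 10 kb. An IDR of at most 0.05 in all 4 lists gave 7258 sites, with 22.3%, 19.1% and 2.96% for both FOXA3 lists and the fusion, 47.0% inside a gene and 8.225% with a neighbour. Limiting p to 1e-05 in each replicate left 177 sites, with 34.5%, 29.9%, 5.085% and 1.13% for the same 4 lists, 40.7% inside a gene and 0.0% with a neighbour. Equal numbers of the strongest peaks gave 2485 sites, with 11.7% and 9.98% for both FOXA3 lists and 3.46% with a neighbour. Outside the gene-free stretches the fusion share was 1.501% and that of SOX2 0.06525%. Without the rows that both FOXA3 lists share, CTD-deleted FOXA3 gave 2.17% and full-length FOXA3 0.839%, and the first-replicate lists gave 10.3% for the fusion and 5.08% for SOX2. Limits of 2.5 kb for gene ends and 50 kb for neighbours gave 5.185% and 21.1%. The causes of these shifts were not tested.

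The difference from full-length-only sites kept its sign for CTD-deleted FOXA3 and for gene ends in every setting that gave a value, though with 16 or 17 full-length-only sites (the settings of a common IDR of 0.05 and a p of at most 1e-05) the intervals include 0. The differences at an IDR of at most 0.01 could not be given. The full-length FOXA2 list held 0 peaks at that limit, so 0 full-length-only sites were possible. For the fusion the difference turned to 1.10 points with the first replicate's list. For SOX2 it turned to -0.0685 outside the gene-free stretches and was 2.38 with the first replicate's list. The cause was not tested. The unknown depth limits every comparison of strength between lists.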
